A study of Caenorhabditis elegans with 8 samples.

Results

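In young adult Caenorhabditis elegans carrying rde-12(hj41), 121 genes kept between 51.3% and 79.9% of their wild-type small RNA level. They were chosen by measured values: among 1937 genes in the deposited table, each had a mean of at least 20 CPM (counts scaled to a common total, each count divided by the library's summed count over the table, times 1000000) in N2 and an rde-12(hj41) to N2 ratio above 0.5 and up to 0.8. The set was 6.67% of the 1813 genes at 20 CPM or more in N2. Of the others at that level, 57 had a ratio of 0.5 or less, 1489 lay above 0.8 and up to 1.25, 143 lay above 1.25, and 3 that met the bounds (pdfr-1, nspd-5 and fbxa-24) were set aside by name. Since the ratio itself chose the 121 genes, their difference between genotypes is described and supports nothing further.

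The rde-12(hj41) mutant was compared with the wild-type strain N2, with 2 biological samples of each genotype as the labels give them. Both groups were whole animals, synchronised at the first larval stage and grown for 50 hours at 20 °C on OP50, the standard laboratory Escherichia coli food, without an RNAi trigger. Small RNAs of 20 to 26 nt were purified from a gel, and TAP treatment, which trims a 5′ triphosphate to a form that adapters can join, let amplified small RNAs enter the libraries. The other 4 of the 8 libraries came from animals fed bacteria with a sel-1 RNAi trigger and were not used here.

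Small interfering RNAs of C. elegans are amplified: a primary small RNA, carried by an Argonaute protein, marks a messenger RNA, and RNA-dependent RNA polymerases then copy that messenger into many secondary small RNAs that start with a triphosphate. Secondary small RNAs are loaded onto worm-specific Argonautes, which silence some targets and license others for expression. RDE-12 is a DEAD-box RNA helicase required for full RNA interference and, as the series' title has it, for the amplification step in cytoplasmic foci. The counts here are of small RNAs assigned to a gene, and messenger RNA was not measured.

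The 2 rde-12(hj41) libraries held 5563151 and 4354715 counts over the table, and the 2 N2 libraries 4270098 and 4382256. Counts of rde-12 itself were not analysed here, so they give no check of the mutation. Replicate libraries were not copies of each other (chi-square per degree of freedom over genes of 4.13 between the rde-12(hj41) libraries and 3.50 between the N2 libraries), so each was kept as its own sample. In edgeR's quasi-likelihood test with Benjamini-Hochberg adjustment at 0.05, 268 of 1931 genes tested (13.9%) were lower in rde-12(hj41) and 267 (13.8%) were higher, 27.7% in all. When library totals replaced TMM factors the split was 221 lower and 333 higher, and with upper-quartile factors 202 lower and 370 higher.

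The losses were shallow. The median gene of the set stood at 74.1% of its N2 level, with quartiles of 67.4% and 77.3%, which is 1.35-fold lower. The median log2 ratio was −0.43 over the set and 0.01 over all genes of the table. By depth of loss, 13 genes lay between 50% and 60% of N2, 26 between 60% and 70%, and 82 between 70% and 80%. The set therefore leaned towards its upper bound.

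Group means over the set ran between 12.3 and 1299.9 CPM in rde-12(hj41), with a median of 63.9 CPM, and between 21.1 and 1750 CPM in N2, with a median of 85.9 CPM. Together the 121 genes took 1.74% and 1.78% of all counts in the rde-12(hj41) libraries (1.76% ± 0.0273, SD, n = 2), against 2.56% and 2.50% in the N2 libraries (2.53% ± 0.0394, SD, n = 2). The shares did not overlap between genotypes. Each gene was chosen by its lower ratio in these same libraries, so a lower summed share follows from the rule and nothing is read from it. In whole animals, fewer cells that hold a small RNA and less of that small RNA per cell cannot be told apart.

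Both rde-12(hj41) libraries lay below both N2 libraries for 120 of the 121 genes, beside 27.1% of all genes in the table and 27.2% of those at 20 CPM or more. The exception was C06A5.2, with 58.1 and 77.2 CPM in rde-12(hj41) against 94.6 and 77.1 CPM in N2. The edgeR test called 117 of the 121 lower and 0 higher, where 13.9% of all genes tested and 14.1% of those at 20 CPM or more were called lower. Members left uncalled were C06C6.8, C55A6.4, F36A2.14 and eat-16, all under 30 CPM in N2. Selection on the same ratio made such counts high, and nothing is read from them. DESeq2 called 69 of the 121 lower (8.11% of all genes), and edgeR called 73 without rde-12(hj41) replicate 1 (9.06% of all genes) and 73 without N2 replicate 1 (9.52% of all genes).

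**Figure D1:**
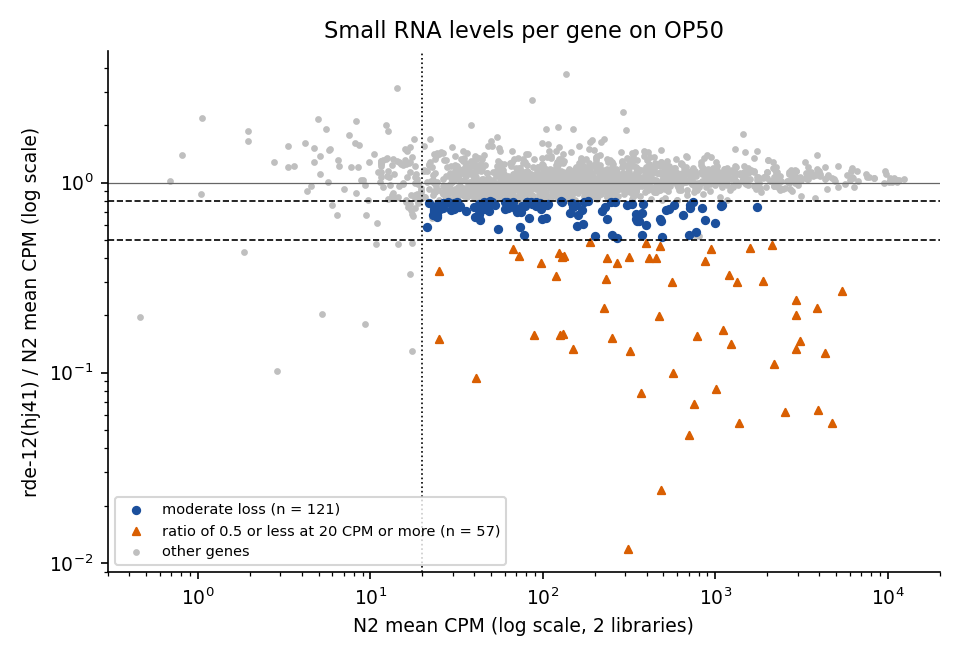
Each gene of the table by its N2 mean level (x axis, CPM, log scale) and its rde-12(hj41) to N2 ratio (y axis, log scale), with the 121 moderate-loss genes, the strong-loss genes and all others in separate colours and the bounds of the rule as lines. The 121 genes form a band between 51.3% and 79.9% of N2, and most lie near its upper edge at low and middle levels.

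The gene with the most counts was gly-13 (B0416.6), an N-acetylglucosaminyltransferase of N-glycan processing. It had 1281 and 1319 CPM in rde-12(hj41) against 1772 and 1728 CPM in N2, a log2 difference of −0.45 ± 0.0552 (SE) in the edgeR fit. Next came klf-1 (F56F11.3), a Krüppel-like zinc finger transcription factor, with 829 and 830.1 CPM in rde-12(hj41) and 1119 and 1067 CPM in N2, and lido-8 (K08A2.1), with 849 and 777 CPM in rde-12(hj41) and 1106 and 1049 CPM in N2. In these 3 genes the gap between genotypes was larger than that between replicates, as in 110 of the 121 genes, which the rule makes likely. Each kept about the same share of its wild-type level, 74.3% for gly-13, 75.9% for klf-1 and 75.4% for lido-8.

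Of the next genes by N2 level, C46G7.3 had 629 and 597 CPM in rde-12(hj41) against 1054 and 937 CPM in N2, and Y57G11C.51 had 575 and 531 CPM against 827 and 909.6 CPM in N2. gfrl-1 (Y69A2AR.31) had the closest replicates of the 12 highest genes, with 621 and 619 CPM in rde-12(hj41) and 842 and 837 CPM in N2. These 3 stood at 61.6%, 63.7% and 73.8% of N2, so depth of loss differed among genes of like level. The 12 highest also held R04E5.8 (602 and 566 CPM in rde-12(hj41), 741 and 746 CPM in N2), which at 78.6% was the shallowest of them, and nrps-1 (Y66D12A.14), a non-ribosomal peptide synthetase (551 and 531 CPM in rde-12(hj41), 698 and 719 CPM in N2). In every one of the 12 both rde-12(hj41) libraries lay below both N2 libraries, as in 120 of the 121 genes. The share was 27.2% over all genes at 20 CPM or more, and selection on the ratio made it high here.

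Counts grow with the length of the transcript, so the order by CPM is not an order of small RNA density. Per kilobase of annotated exon, Y57G11C.51 was the densest of the set in both genotypes, at 766 CPM per kb in rde-12(hj41) and 1202 CPM per kb in N2. Y102A5C.36, with 707 CPM per kb in rde-12(hj41) and 1123 CPM per kb in N2, came next in N2 but not in rde-12(hj41), where gly-13 and T07F10.5 (739 CPM per kb in rde-12(hj41), 1069 CPM per kb in N2) were denser. At 758 CPM per kb in rde-12(hj41) and 1020 CPM per kb in N2, gly-13 stayed near the top. With 61.0 CPM per kb in rde-12(hj41) and 79.8 CPM per kb in N2, the long gene nrps-1 was close to the set's median of 47.1 CPM per kb in rde-12(hj41) and 66.5 CPM per kb in N2.

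**Figure D2:**
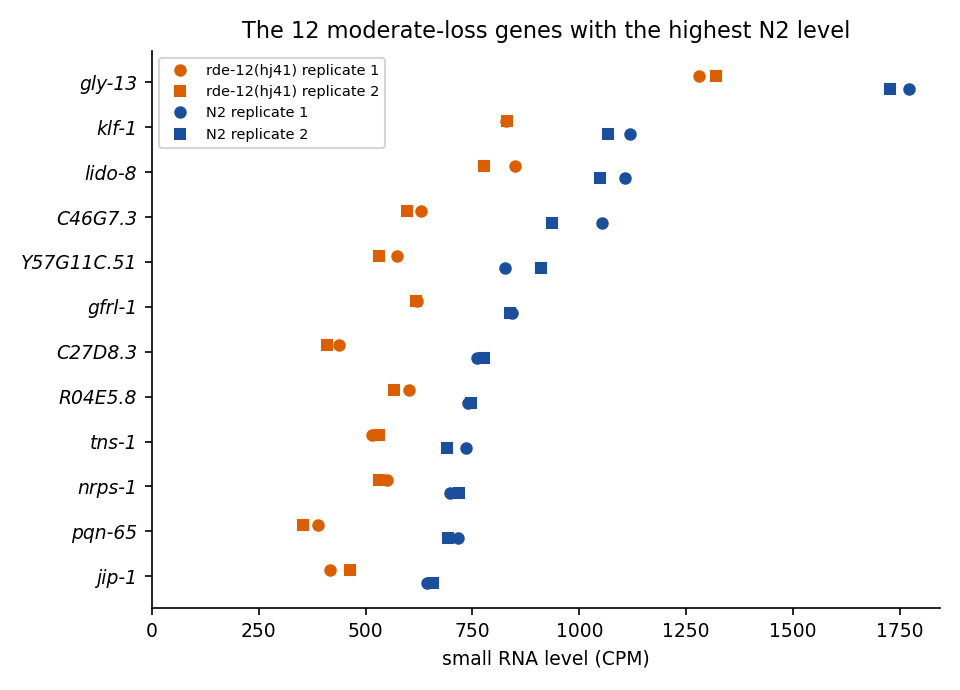
Small RNA level (x axis, CPM) in each library for the 12 moderate-loss genes with the highest N2 level (rows), with rde-12(hj41) in orange, N2 in blue, circles for replicate 1 and squares for replicate 2. In all 12 rows the orange marks lie left of the blue ones, with the widest relative gaps in pqn-65 (52.7% of N2) and C27D8.3 (54.96% of N2).

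Genes of cell adhesion and the cytoskeleton included one at the deep end of the set and one near its median. tln-1 (Y71G12B.11) encodes talin, which links integrins to actin, and had the lowest ratio of the set at 51.3%: 141 and 137 CPM in rde-12(hj41) against 279 and 262 CPM in N2, a log2 difference of −0.98 ± 0.0667 (SE). tns-1 (M01E11.7), the tensin that acts at the same integrin attachments, had 515 and 532 CPM in rde-12(hj41) against 736 and 690.1 CPM in N2, or 73.4%. Both genes had libraries that did not overlap between genotypes, as did 120 of the 121 genes after selection on the ratio. This grouping, and those that follow up to the F-box genes, were made after the values were seen.

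Among genes of secretion and endocytosis, sec-16A.2 (F13B9.1), a SEC16 homologue of the sites where cargo leaves the endoplasmic reticulum, had 258 and 251 CPM in rde-12(hj41) against 492 and 494 CPM in N2. That is 51.6% of N2, next to tln-1 at the deep end of the set. The shallow end held rme-6 (F49E7.1), an activator of RAB-5 in endocytosis, with 293 and 295 CPM in rde-12(hj41) and 388 and 371 CPM in N2 (77.6%). The rabconnectin gene rbc-1 (F54E4.1) had 169 and 173 CPM in rde-12(hj41) against 223 and 238 CPM in N2 (74.1%).

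Signalling genes of the set included jip-1 (F56D12.4), a scaffold of the JNK kinase cascade, with 416 and 463 CPM in rde-12(hj41) against 644 and 659 CPM in N2 (67.5%). The octopamine receptor gene ser-3 (K02F2.6) had 133 and 139.8 CPM in rde-12(hj41) against 170.3 and 177 CPM in N2 (78.7%), and frpr-15 (K10C8.2), of the FMRFamide-peptide receptor family, had 60.9 and 65.9 CPM against 103 and 94.7 CPM in N2 (64.1%). In all 3 of these genes both rde-12(hj41) libraries lay below both N2 libraries, as selection on the ratio made likely (120 of the 121 genes). mib-1 (Y47D3A.22), a Mindbomb-type ubiquitin ligase of Notch signalling, had 430.2 and 448 CPM in rde-12(hj41) and 589 and 560.0 CPM in N2. The G-protein regulator eat-16 (C16C2.2) had 18.5 and 19.5 CPM in rde-12(hj41) and 23.0 and 26.2 CPM in N2, and did not pass the edgeR test.

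Besides klf-1, genes of nuclear proteins included 3 that stood below the set's lower quartile of 67.4%. ercc-1 (F10G8.7), a subunit of a DNA repair nuclease, had 225 and 229 CPM in rde-12(hj41) against 373 and 353 CPM in N2 (62.6%). spat-3 (T13H2.5), a RING protein related to Polycomb ubiquitin ligases, had 220.0 and 222 CPM in rde-12(hj41) and 358 and 348 CPM in N2, also 62.6%. The homeobox gene ceh-43 (C28A5.4), the worm Distal-less, had 56.6 and 52.1 CPM in rde-12(hj41) against 81.7 and 85.3 CPM in N2 (65.1%). All of these separated the genotypes by more than the replicate spread, as did 110 of the 121 genes. The rule makes that count high, so nothing is read from it.

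Other genes with textbook roles were spread over cell biology. Sestrin (sesn-1, Y74C9A.5), which acts in stress responses, stood at 67.3% of N2, and bbs-4 (F58A4.14), of the ciliary BBSome, at 65.2%. The astacin metalloprotease gene nas-36 (C26C6.3), which acts in moulting, stood at 72.4%, with 380.0 and 402.8 CPM in rde-12(hj41) against 561 and 519.6 CPM in N2. Succinyl-CoA ligase subunit gene suca-1 (F47B10.1) stood at 69.9%, the Niemann-Pick C homologue ncr-2 (F09G8.4) at 76.7% and the ABC transporter gene wht-5 (F19B6.4) at 78.9%. In each of these genes both rde-12(hj41) libraries were below both N2 libraries, as selection on the ratio made likely (120 of the 121 genes).

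F-box, MATH and BTB genes, whose products are adaptors of ubiquitin ligases, supplied 6 members. Of the 75 such genes tested, 13 were called lower and 11 higher, 17.3% lower beside 13.9% over all genes, and the list's median log2 difference was 0.02. The highest were fbxa-60 (T12B5.10), with 237 and 237 CPM in rde-12(hj41) against 354 and 337 CPM in N2, and fbxa-106 (Y59A8B.11), with 99.2 and 98.1 CPM against 148 and 138 CPM in N2. fbxb-37 (T16A1.8) and fbxc-37 (F31A9.4), which RefSeq lists as a pseudogene, were deeper, at 58.7% and 56.9% of N2. bath-34 (W02A11.5) lay at the upper bound with 95.8 and 107 CPM in rde-12(hj41) against 131 and 123 CPM in N2.

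Other role lists, drawn up by the start of gene symbols, held few members or 0. They leave out members whose symbols start otherwise, such as klf-1 among transcription factors and tln-1 and tns-1 in adhesion. They may also take in genes without the role, since a symbol start such as lin- does not give one. Their counts are to be read beside the 13.9% of all genes called lower and 13.8% called higher. The transcription and chromatin list held ceh-43 and lin-33 (H32C10.2, 32.5 and 33.5 CPM in rde-12(hj41), 45.7 and 41.1 CPM in N2). Of its 51 genes tested, 5 were called lower and 12 higher. Neuronal signalling held ser-3, with 2 of 43 called lower and 10 higher. Innate immunity and lectins held clec-12 (T27F6.2), a C-type lectin gene with 166 and 146 CPM in rde-12(hj41) and 217 and 226 CPM in N2, which was the single gene of 9 called lower, beside 1 called higher. Kinases and phosphatases held kin-31 (B0523.1), listed as a pseudogene, one of 2 called lower among 12, with 0 higher.

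RNA silencing and germ granule genes held 0 of the 121, and 2 of 28 were called lower with 0 higher. Also without a member were the lists for cuticle and matrix (2 of 14 lower, 4 higher), junction and adhesion (0 of 3 lower, 1 higher), metabolism and detoxification (1 of 26 lower, 7 higher) and translation and protein turnover (4 of 31 lower, 7 higher). Targets of the ERGO-1 Argonaute, a list taken from an earlier reading of these data, held 0 members: 12 of 13 were called lower, and all 12 had ratios of 0.5 or less, so the rule itself kept them out.

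The 12 lowest ratios belonged to named genes and to genes known by sequence names only, which made up 76 of the 121. Behind tln-1 and sec-16A.2 came the pseudogene Y51H7C.15 (103 and 106 CPM in rde-12(hj41), 199.995 and 201 CPM in N2), pqn-65 (T13H2.4, a gene of the glutamine- and asparagine-rich class, 388 and 355 CPM in rde-12(hj41), 717 and 692 CPM in N2) and C39F7.5 (131 and 133 CPM in rde-12(hj41), 255 and 246 CPM in N2). Each stood between 52.1% and 52.8% of N2. T25G12.11 and Y61A9LA.3 both stood at 53.2%, the first with 39.7 and 42.9 CPM in rde-12(hj41) against 79.4 and 76.0 CPM in N2, the other with 202 and 199 CPM against 379 and 373 CPM in N2. C27D8.3 followed with 437 and 409 CPM in rde-12(hj41) and 762 and 777 CPM in N2. The losses near 50% thus spanned low and high levels.

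The rde-12(hj41) libraries differed from each other more in these genes than over all genes at 20 CPM or more. These libraries also chose the set, and its genes lay more often at low N2 levels, so the spread is only described. The median absolute log2 difference between the rde-12(hj41) replicates was 0.124 over the set, against 0.0740 over all genes at 20 CPM or more. Between the N2 replicates it was 0.0781 over the set and 0.0722 over all. In 110 members the log2 difference between genotypes exceeded both replicate differences, and in 11 it did not. The rule kept only log2 ratios of −0.32 or lower, so a high count follows from it. The count was not made over all genes, and nothing is read from it.

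The spread had a direction. rde-12(hj41) replicate 1 was below replicate 2 in 87 of the 121 genes (71.9%), beside 1190 of the 1813 (65.6%) and 25 of the 57 strong-loss genes (43.9%). It was more than 1.2-fold below in 22 members (18.2%), beside 144 of the 1813 (7.94%), and more than 1.2-fold above in 1 member (0.826%), beside 12 of the 1813 (0.662%). The N2 libraries were more than 1.2-fold apart in 12 members (9.92%) and 90 of the 1813 (4.96%). The mutant libraries thus differed by more than 1.2-fold in a minority of the 121 genes, nearly always with replicate 1 the lower.

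Examples were sfxn-1.3 (Y6E2A.9), a sideroflexin gene, with 52.7 and 84.3 CPM in rde-12(hj41) against 96.0 and 86.9 CPM in N2, and C38C10.3, with 215 and 293 CPM in rde-12(hj41) against 336 and 323 CPM in N2. Y53C10A.15 went furthest, with 11.1 and 19.7 CPM in rde-12(hj41) and 24.6 and 21.5 CPM in N2. In each, replicate 2 of the mutant lay close to N2 while replicate 1 lay well below it. These 3 genes were chosen after their values were seen.

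**Figure D3:**
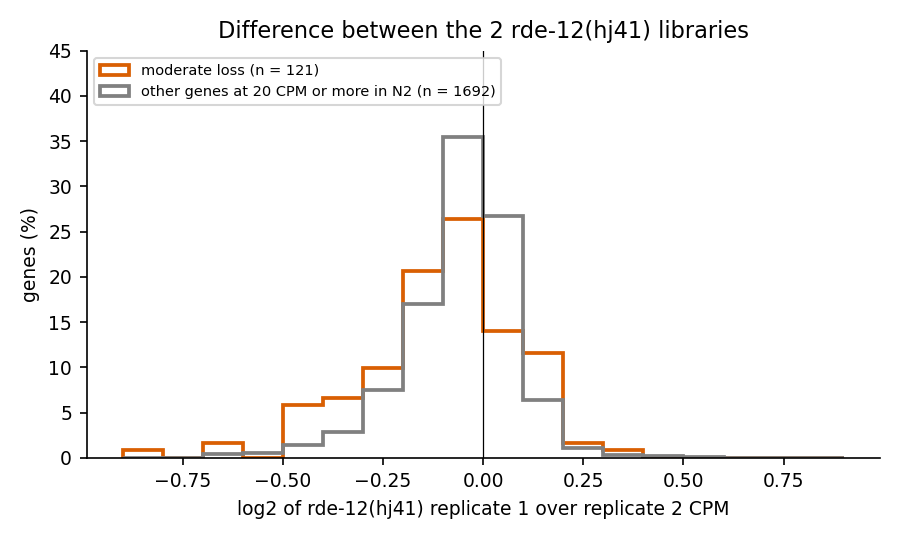
Distribution of the log2 ratio of rde-12(hj41) replicate 1 to replicate 2 CPM (x axis) as a percentage of genes (y axis), for the 121 moderate-loss genes and for the other 1692 genes at 20 CPM or more in N2. The moderate-loss genes have a longer tail on the left, where replicate 1 is below replicate 2.

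Most markers of sperm were lower in rde-12(hj41) replicate 1 than in replicate 2, as were most genes at 20 CPM or more. The sperm list was drawn up by the start of gene symbols and leaves out others, such as spch-3. Over the 26 genes of this list, the summed level was 1689 and 1832 CPM in rde-12(hj41) against 2184 and 2185 CPM in N2, with no marker at 0. rde-12(hj41) replicate 1 was below replicate 2 for 19 of the 26, with a median of 88.3% of replicate 2, and N2 replicate 1 was below replicate 2 for 12 of 26. For replicate 1 below replicate 2 in rde-12(hj41), the share over all genes at 20 CPM or more was 65.6%, with a median of 97.4% of replicate 2. The edgeR test called 6 of 26 (23.1%) lower and 0 higher, beside 13.9% lower and 13.8% higher over all genes, with a median log2 difference of −0.24. Members among the 26 were nspd-4 (T23B7.1), with 61.8 and 56.5 CPM in rde-12(hj41) and 74.9 and 81.9 CPM in N2, and nspd-1 (ZK484.8), with 23.5 and 25.9 CPM in rde-12(hj41) and 32.8 and 31.0 CPM in N2. Of these, nspd-4 was higher in rde-12(hj41) replicate 1 than in replicate 2, and nspd-1 was lower.

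The 8 germline and oocyte markers summed to 3712 and 3770.2 CPM in rde-12(hj41) against 3408 and 3635 CPM in N2, with 0 called in either direction and none at 0. The part that the number of sperm or the difference between the mutant libraries has in the members' ratios was not tested.

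Each rde-12(hj41) library was then set against the N2 library of the same number, although the labels do not say that the numbers pair the samples. The median member stood at 69.5% of N2 in the replicate 1 libraries and at 76.1% in the replicate 2 libraries. Of the 121 genes, 68 met the bounds in both, 41 met them in replicate 1 and exceeded 80% in replicate 2, 11 did the reverse, and Y53C10A.15 was at or below 50% in replicate 1.

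The 68 genes that met the bounds in both had a median N2 level of 165 CPM and medians of 69.4% and 69.9% of N2 in the 2 comparisons, and 35 of them carried gene names. gly-13, klf-1, tln-1, tns-1, sec-16A.2, jip-1, spat-3 and ercc-1 were among them. The 41 had a median N2 level of 62.0 CPM and medians of 67.2% in replicate 1 and 84.7% in replicate 2, and 8 carried gene names. The 11 that met the bounds in replicate 2 but not in replicate 1 had a median N2 level of 49.6 CPM. Both groups were therefore lower in level than the 68.

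**Figure D4:**
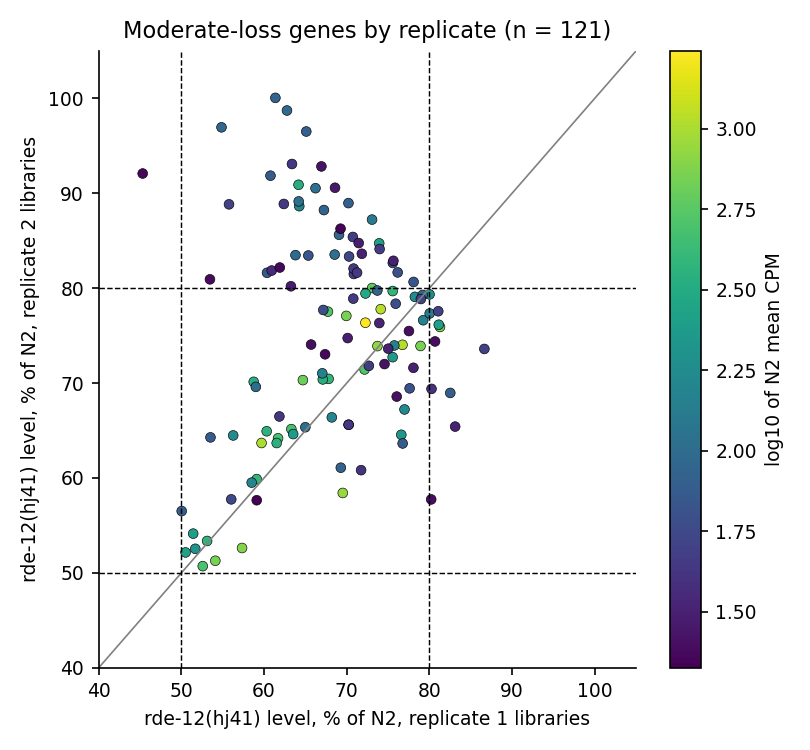
rde-12(hj41) level as a percentage of N2 for each of the 121 genes, in the replicate 1 libraries (x axis) and the replicate 2 libraries (y axis), coloured by N2 mean level (log10 CPM), with dashed lines at 50% and 80% and the diagonal. Of the 121 points, 68 fall inside the dashed square and 41 lie above it, most of these with low N2 levels.

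To read the loss in libraries that had not chosen the genes, the bounds were applied in the libraries of 1 number and the ratio was taken in those of the other. Chosen in replicate 1, 204 genes had a median of 72.4% there and 88.0% in replicate 2. Of these, 68 (33.3%) again met the bounds in replicate 2, beside 5.30% of 1811 genes at 20 CPM or more. Of the 204, 165 (80.9%) were below N2 in replicate 2, beside 43.3% of the 1811. Chosen in replicate 2, 98 genes had a median of 72.9% there and 74.3% in replicate 1. Of these, 68 (69.4%) met the bounds in replicate 1, beside 11.1% of 1819 genes at 20 CPM or more. In the same reading 93 (94.9%) were below N2, beside 49.5% of the 1819. The median was thus close in both readings for genes chosen in replicate 2, and nearer to N2 where read for genes chosen in replicate 1. Of genes at 20 CPM or more, however, 11.1% met the bounds in replicate 1 and 5.30% in replicate 2. Genes chosen in replicate 2 were therefore read where such ratios were more frequent, so these readings cannot show that the size of the loss held. The same libraries also chose the full set, and the part of the difference between them was not tested. These readings were added after the data were seen.

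Moderate losses were most frequent among genes with few counts. The share of genes in the set was 41 of 269 (15.2%) between 20 and 50 CPM in N2, 28 of 323 (8.67%) between 50 and 100, 24 of 632 (3.80%) between 100 and 300, 25 of 362 (6.91%) between 300 and 1000, and 3 of 227 (1.32%) at 1000 CPM or more. The share did not fall evenly, being higher between 300 and 1000 CPM than between 100 and 300. Over the 121 genes, N2 level and ratio had a Spearman correlation of −0.20 and, on log2 scales, a Pearson correlation of −0.28. Both are descriptions across genes of the same 4 libraries, and the N2 level is part of the ratio.

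**Figure D5:**
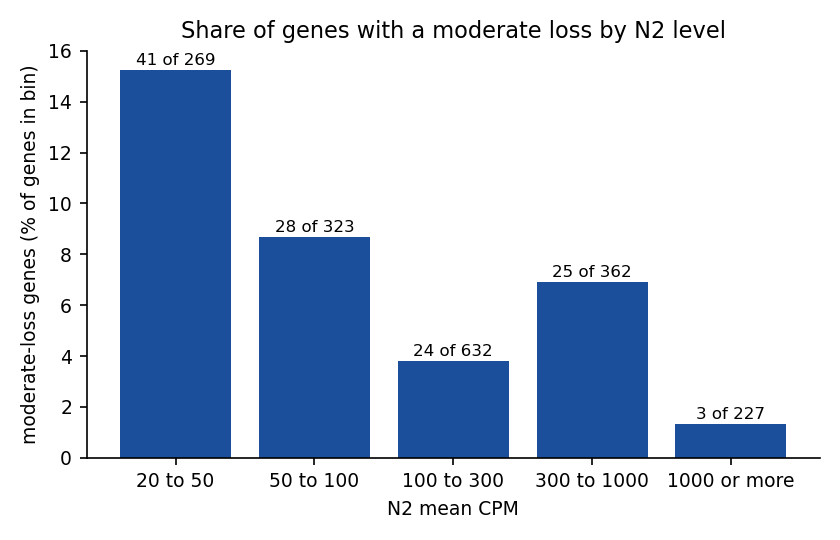
Share of genes that belong to the moderate-loss set (y axis, percent) in bins of N2 mean level (x axis, CPM), with the number of members and genes above each bar. The bars run between 15.2% in the lowest bin and 1.32% in the highest, with a second rise to 6.91% between 300 and 1000 CPM.

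Pseudogenes were few in the set and among the 1489 genes with ratios above 0.8 and up to 1.25, called near-level genes here. RefSeq listed 4 members as pseudogenes (Y24F12A.3, Y51H7C.15, kin-31 and fbxc-37), or 3.31%, against 22.8% of the strong-loss genes and 4.30% of the near-level genes. Gene names were carried by 45 members (37.2%), against 28.1% of strong-loss and 55.2% of near-level genes. Median exon length was 1.29 kb, against 1.11 kb in strong-loss and 1.504 kb in near-level genes. The median N2 level per length was 66.5 CPM per kb, against 322 CPM per kb for strong-loss and 101 CPM per kb for near-level genes, so the set was the lowest of the 3 on this scale. These shares were not tested.

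Members lay beside another gene of the table about as often as near-level genes. Of 118 members placed on the annotation, 33 (28.0%) had a direct neighbour in the table, beside 25.1% of near-level genes. Of these 33, 6 neighboured another member (18.2%, beside 6.85% of near-level genes with such a neighbour) and 8 a gene called lower (24.2%, beside 12.9%). The 6 make 3 pairs, each counted from both sides, and all 6 are also among the 8. The shares are therefore not read as clustering. pqn-65 and spat-3 lie next to each other on the same strand, as do T16G12.1 (97.2 and 109.8 CPM in rde-12(hj41), 173 and 170.2 CPM in N2) and T16G12.7 (49.4 and 52.4 CPM in rde-12(hj41), 75.6 and 62.8 CPM in N2). The third pair, Y59E9AR.2 and Y59E9AR.8, had identical counts in every library (172 and 118 in rde-12(hj41), 188 and 181 in N2) and cannot be told apart.

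Other members sat beside genes that kept or raised their small RNAs. Y61A9LA.3, at 53.2% of N2, overlaps its neighbour hpo-39 on the opposite strand, which stood at 130% (373 CPM in rde-12(hj41), 287 CPM in N2). Y46H3C.7, at 59.5%, neighbours Y46H3C.6 at 114.5%. frpr-15, at 64.1%, overlaps parn-1 on the opposite strand, which stood at 99.0% with 1777 CPM in rde-12(hj41) and 1795 CPM in N2. fbxa-63 (Y119D3B.7, 19.1 and 17.7 CPM in rde-12(hj41), 25.1 and 25.8 CPM in N2) was the single member beside a strong-loss gene, fbxa-61, which kept 3.68 CPM in rde-12(hj41) of 310.3 CPM in N2. These pairs were chosen after their values were seen, for the difference between neighbours.

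Overlap with another gene was about as common in the set as elsewhere: 32 of 118 members (27.1%) overlapped an annotated gene, 24 of them (20.3%) on the opposite strand, against 541 of 1779 (30.4%) and 431 (24.2%) of all genes at 20 CPM or more. Which strand was counted is not given in the labels, so reads of a member and its antisense partner may be mixed.

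The bounds cut through a continuum. Just inside the lower bound stood tln-1 at 51.3%, sec-16A.2 at 51.6% and Y51H7C.15 at 52.1% of N2, and just outside stood T25D3.3 at 48.4%, pry-1 at 48.1% and CD4.8 at 46.8%. At the upper bound, bath-34 (79.9%), C17H12.3 (79.8%) and F16B12.6 (79.7%) were inside, and nspa-8 (80.005%), irk-3 (80.1%) and T28C6.5 (80.3%) were outside. Within 0.02 of the upper bound on the ratio lay 23 members on its inner side and 23 genes on its outer side. At the bound on level, F13E9.5 (12.3 CPM in rde-12(hj41), 21.1 CPM in N2), C06C6.8 (17.1 CPM in rde-12(hj41), 21.95 CPM in N2) and Y53C10A.15 (15.4 CPM in rde-12(hj41), 23.0 CPM in N2) were inside, and Y73F8A.15 (14.8 CPM in rde-12(hj41), 19.0 CPM in N2), irld-6 (13.3 CPM in rde-12(hj41), 18.1 CPM in N2) and C25H3.16 (11.83 CPM in rde-12(hj41), 17.7 CPM in N2) were outside. The genes set aside by name stood at 52.7% (pdfr-1), 52.4% (fbxa-24) and 65.0% (nspd-5).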

How the data were processed

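The authors deposited a gene table of whole-number counts of small RNAs, not normalized, for the 4 OP50 libraries. The submitters' processing notes list TopHat 1.4.1, SAMtools and bedtools. Not given in the sources used here are the genome build, the strand counted, the treatment of reads with several matches and how genes were selected. Of 1959 rows, 22 repeated another and were counted once. The table is a selection of genes, so its totals are not whole-library depths.

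CPM of the column sum and group means gave the rule. The members and lists were chosen with earlier results of these data known. All genes were fitted with edgeR 4.0.16 under R 4.3.3 (quasi-likelihood F test, TMM factors of 0.987 to 1.03, filterByExpr, which removed 6 genes, Benjamini-Hochberg over the remaining 1931), after the code was tested on simulated data. DESeq2 1.42.0 was an alternative. The biological coefficient of variation was 4.06%. With 2 libraries a group, an exact permutation test of 1 gene cannot go below a p of 0.333. The lowest count of a member was 62 and 55 in the rde-12(hj41) libraries, and 87 and 94 in the N2 libraries.

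Names came from RefSeq (WBcel235), which matched 1900 genes and 118 members (not C46G7.3, T20H12.1 and F23A7.7), and exon lengths and overlaps from Ensembl release 115, without coordinates, since the counts' build is not given. Genes named by rule were the 12 highest in N2, the 12 lowest in ratio, up to 3 a role list, neighbouring members and those nearest each bound. Others were chosen after their values were seen. Alternatives were other scalings, filters, leaving out each library and the replicate number as a block.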

Additional observations from a re-analysis of the deposited data

How the results depend on the processing

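Against 268 genes called lower and 267 higher, DESeq2 called 157 lower, and edgeR without 1 library called between 175 and 304 lower and between 165 and 308 higher, with the lowest of each without rde-12(hj41) replicate 1. Of the 121 genes, 117 were called lower, against 69 with DESeq2, between 73 and 113 without 1 library (73 without rde-12(hj41) replicate 1 and 73 without N2 replicate 1), 101 with library totals and 100 with upper-quartile factors. In 59 genes the call was made in all 9 alternatives. The rule chose the 121 on this same contrast and the count of 59 was not made over all genes, so nothing is read from it. Over all genes, library totals called 221 lower and upper-quartile factors 202. The number meeting the rule was 80 at a minimum of 50 CPM and 140 with TMM-scaled CPM, which kept all 121. It was between 92 (81 of the 121) without rde-12(hj41) replicate 1 and 199 (115 of the 121) without rde-12(hj41) replicate 2. With the replicate 1 libraries alone it was 204 and with the replicate 2 libraries alone 98, both tried after seeing the data. The median log2 ratio stayed between −0.43 and −0.47 in every alternative, bounds that the rule itself fixes. Of 369 alternative values for 41 named genes, 343 kept their call, 25 lost it, 1 gained it and 0 changed direction. The cause of these changes was not tested. With the replicate number as a block, 97 of the 121 were called lower, and 230 genes were lower and 243 higher in all. Same-numbered libraries did not deviate together (correlation 0.038), and the labels do not say whether the numbers pair the samples. The 4 uncalled members lay under 30 CPM and between 77.3% and 79.3% of N2, and the parts of depth and of size of loss were not tested.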
